A study of Mus musculus with 35 samples.

Results

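Memory CD8 T cells of the mouse spleen were compared between libraries labelled Dot1l KO and libraries labelled WT, 4 of each among the 35 RNA sequencing libraries of the series, and were chosen by genotype and sorted subset alone. The cells were sorted as CD44+ CD62L+ from C57BL/6 mice. All carried a Cre transgene (Lcre+/-), whose promoter the labels do not spell out, together with Dot1Lwt/wt (WT), Dot1Lfl/wt (Het) or Dot1Lfl/fl (KO) alleles. A further 4 memory libraries were Het, and the naive subset of the spleen (CD44- CD62L+) gave 4 KO and 4 WT libraries that are used below for comparison. Age and sex of the mice are not in the labels, which also do not say that replicates were separate animals. The p values therefore rest on sample-to-sample spread, which may be technical in part. Of 52636 listed genes, enough counts for a test were found in 10296.

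DOT1L is the only enzyme known to methylate lysine 79 of histone H3 on the nucleosome core, a mark laid down over the bodies of transcribed genes. It binds AF9 and ENL family proteins that also recruit transcription elongation factors. Central memory CD8 T cells carry CD44, the interleukin 15 receptor beta chain and the T-box factors Eomes and T-bet, keep the lymph node homing receptor CCR7, and can arise from antigen experience or, as virtual memory cells, from cytokine signals in mice that have met no infection.

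Total counts were 7075239 to 16879636 in the KO memory libraries and 9420566 to 13771470 in the WT memory libraries. The first principal component of the 12 memory libraries (44.0% of variance) placed the 4 KO libraries at 38.6 to 46.6 and all WT and Het libraries at -25.2 to -14.2. From Xist and Y-linked counts, 1 of 4 KO and 2 of 4 WT memory libraries were female, so each of these groups drew on more than 1 animal. The memory label was met by the WT libraries: Cd44 was at 28.4 ± 3.47 CPM (counts scaled to library size, mean ± SD, n = 4) against 2.78 ± 1.12 in WT naive libraries, Il2rb at 24.3 ± 3.16 against 5.92 ± 1.12, Eomes at 181 ± 12.5 against 57.1 ± 9.18 and Tbx21 at 164 ± 24.9 against 15.7 ± 5.26. Some transcripts that are plentiful in CD8 T cells had few counts in this table, among them Cd8a at 8.3 ± 2.11 and Cd3d at 2.12 ± 0.347 CPM in WT memory libraries, so CPM is read between libraries of 1 gene. It is not scaled to gene length, and where genes are ordered by CPM below the order is that of counts in this table.

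Dot1l RNA did not fall with the KO label. It stood at 43.8, 45.5, 45.4 and 48.4 CPM in the KO and at 44.8, 52.5, 46 and 38.4 CPM in the WT memory libraries (log2 fold change 0.01 ± 0.08, adjusted p = 0.961). The ranges overlapped and the Het libraries, at 49.5, 51.9, 40.9 and 47.9 CPM, lay among them. The floxed exons are not named in the labels, and counts summed over the whole gene do not test for their loss, so KO stands throughout for the libraries with that label.

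The KO libraries differed from the WT libraries in 2283 of 10296 genes (22.2%) at an adjusted p under 0.05 (edgeR quasi-likelihood test, Benjamini-Hochberg adjustment over all tested genes). Of these 1323 were higher (12.8% of genes) and 960 lower (9.32%). In sorted bulk samples fewer cells with a transcript and less of it per cell cannot be told apart. The changes were unequal in size. Among genes called higher the median log2 fold change was 1.06 and 701 were at least 2-fold up, 190 of them at least 8-fold. Among genes called lower the median was -0.42, with 116 at least 2-fold down and 8 at least 8-fold down. Genes called higher had fewer counts than most, with a median of 2.65 for their mean log2 CPM against 3.76 over all tested genes, and genes called lower had more, with a median of 5.84. The split depends on scaling: with libraries centred on the mean log level of the tested genes, the median log2 fold change over all genes moved from 0.01 to -0.11, and 1019 genes were called higher and 1812 lower. In 2666 genes (25.9%) the CPM ranges of the 4 KO and 4 WT libraries did not overlap, 1439 with KO above (14%) and 1227 with KO below (11.9%).

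**Figure D1:**
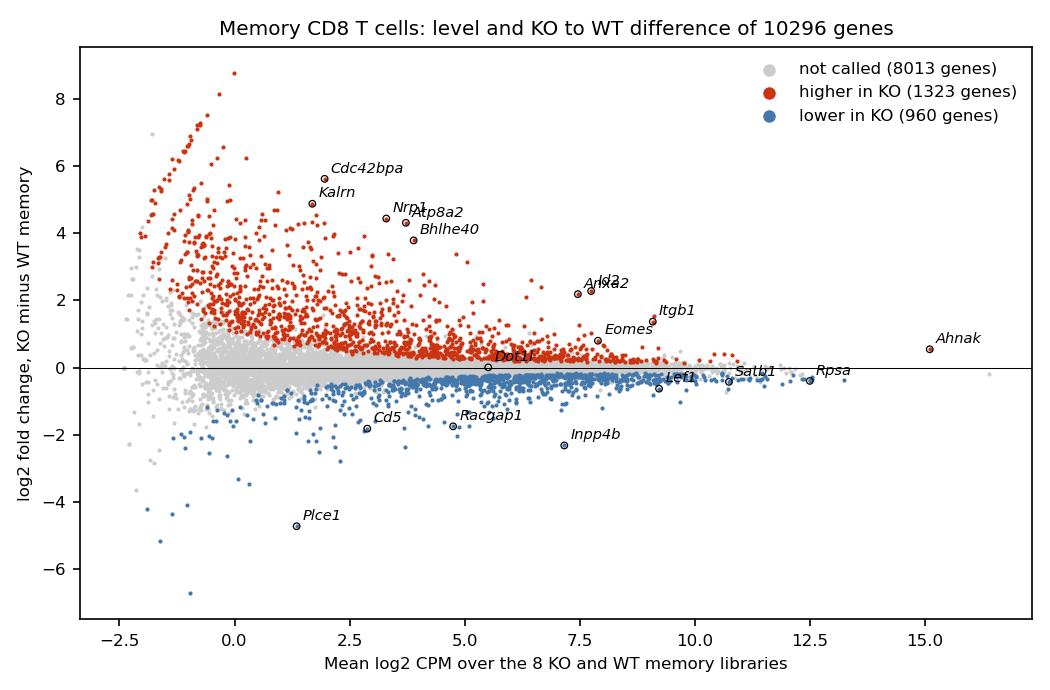
Each point is 1 of the 10296 tested genes, with the mean log2 CPM over the 8 KO and WT memory libraries on the x axis and the log2 fold change, KO minus WT, on the y axis; red points are the 1323 genes called higher and blue points the 960 called lower. The red points with large fold changes lie at low CPM and reach beyond 8-fold (3 on the log2 axis) 190 times, while blue points at high CPM, such as Rpsa and Satb1, lie close under 0.

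The genes named for their fold change reached 1 in mean log2 CPM, and their KO libraries did not overlap the WT libraries. Some genes below that level had larger fitted values in both directions. Within these limits, genes that were barely counted in WT and well counted in KO memory cells led the rise. Cdc42bpa, which encodes the CDC42-binding kinase MRCK alpha that drives actomyosin contraction, had 22.8, 24.4, 27.1 and 25.9 CPM in the KO and 0.311, 0.277, 0.220 and 1.17 CPM in the WT libraries (log2 fold change 5.61 ± 0.33, adjusted p = 2.37e-16). Kalrn, an exchange factor for RAC and other small GTPases, had 16.8, 13, 19.2 and 18 against 1.24, 0.277, 0.220 and 0.358 CPM (log2 fold change 4.87 ± 0.38, adjusted p = 2.68e-12). All KO libraries of both genes lay far above the WT libraries, and the WT values were close to nothing except in WT replicate 4 for Cdc42bpa and WT replicate 1 for Kalrn. Left out in turn, these libraries set the size of the change: the fold change of Cdc42bpa became 6.45 and that of Kalrn 5.80 on the log2 scale.

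Nrp1, the semaphorin and VEGF co-receptor neuropilin 1 known on regulatory T cells, was at 43.5, 35.1, 50.2 and 53.9 CPM in KO and 2.95, 1.02, 1.98 and 2.33 CPM in WT libraries (log2 fold change 4.43 ± 0.19, adjusted p = 5.05e-22). Atp8a2, a flippase that moves aminophospholipids to the inner leaflet of the membrane, was at 53, 57.8, 56.5 and 60.9 against 2.64, 2.86, 2.74 and 3.23 CPM (log2 fold change 4.31 ± 0.14, adjusted p = 8.4e-27). The 4 WT libraries of Atp8a2 lay close together, while those of Nrp1 ranged from 1.02 to 2.95 CPM, far below all KO libraries. Gstm1, a glutathione transferase, was at 14.6, 20.2, 22.3 and 22.8 against 2.56, 0.0923, 0.220 and 0.179 CPM (4.53 ± 0.47). WT replicate 1 stood apart there, and without it the change was 6.85. Sulf2, an extracellular heparan sulfate sulfatase, changed by 4.33 ± 0.58, the zinc finger factor gene Glis3 by 4.30 ± 0.49, the microtubule-guiding gene Nav1 by 4.30 ± 0.30 and Ppargc1a, the coactivator of mitochondrial biogenesis, by 4.28 ± 0.53. Pde4a, a cyclic AMP phosphodiesterase, rose by 4.23 ± 0.47, the chloride channel family gene Clic5 by 4.15 ± 0.52 (4.81 without WT replicate 1) and the lysophospholipid acyltransferase gene Lpcat2 by 4.12 ± 0.45.

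Within the same limits the largest fall belonged to Plce1, a phospholipase C that RAS proteins activate. It had 0.238, 0.750, 0.410 and 0.282 CPM in the KO libraries and 9.71, 11.1, 10.6 and 12.8 CPM in the WT libraries (log2 fold change -4.71 ± 0.32, adjusted p = 2.66e-15). Its neighbour on chromosome 19, Slc35g1, a solute carrier family gene, had 1.43, 2.44, 1.16 and 1.13 against 6.37, 6.28, 8.67 and 6.63 CPM (-2.17 ± 0.22). Plce1 spans chromosome 19, 38481109 to 38785030, and Slc35g1 spans chromosome 19, 38395980 to 38405610 (GRCm38), and in both genes all KO libraries lay below all WT libraries. Inpp4b, a phosphatase that removes a phosphate from PI(3,4)P2, had the highest CPM in WT libraries among the genes called lower by more than 4-fold, at 57, 70.1, 69.7 and 60.9 against 339.8, 301, 307 and 332 CPM (log2 fold change -2.31 ± 0.08, adjusted p = 5.87e-26). Tuba3a, an alpha tubulin gene, had a log2 fold change of -2.77 ± 0.30, Trim59, which encodes a membrane-bound RING protein, -2.49 ± 0.18, and Igfbp4, an insulin-like growth factor binding protein high in naive T cells, -2.37 ± 0.32. The others among the 12 lowest were the scaffold gene Dlg5 (-2.36 ± 0.37), the BMP co-receptor gene Rgmb (-2.19 ± 0.31), the sialyltransferase gene St6gal1 (-2.02 ± 0.12), the cell cycle inhibitor gene Cdkn2c (-1.97 ± 0.30), the follicle-homing receptor gene Cxcr5 (-1.94 ± 0.28) and the RAS association domain gene Rassf3 (-1.87 ± 0.20).

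**Figure D2:**
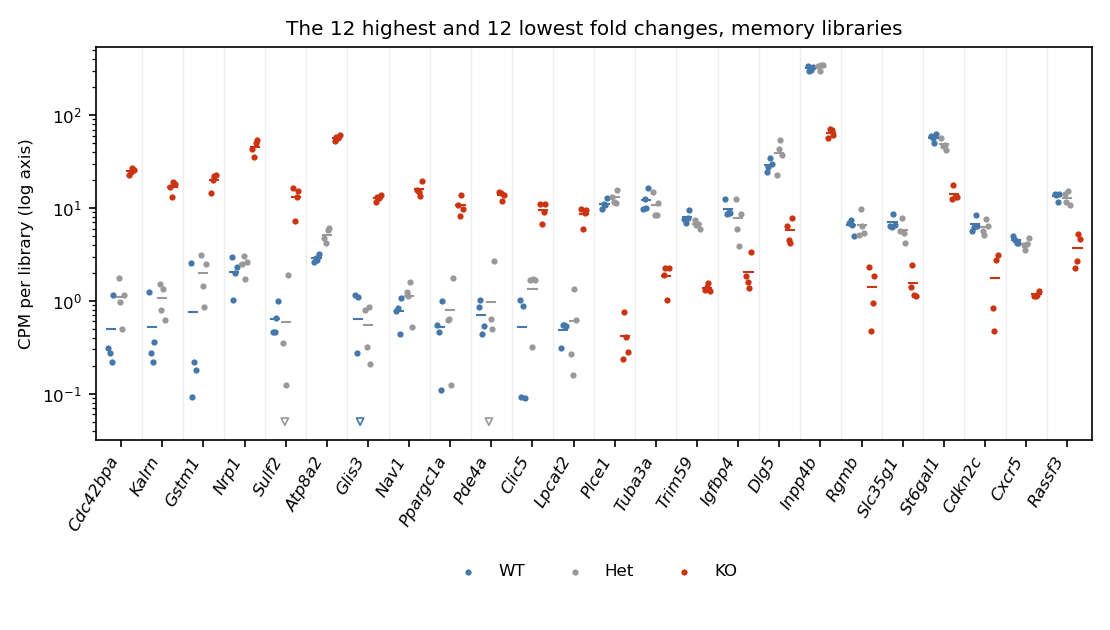
CPM per library (log axis) of the 12 genes with the highest and the 12 with the lowest fold change, by the limits given for named genes, in WT (blue), Het (grey) and KO (red) memory libraries; points are libraries, lines are means of 4 and open triangles at the foot are libraries at 0. For all 24 genes the KO points lie apart from the WT points, as the choice of genes required, and the Het points, which the choice did not use, lie near the WT points.

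The start-site regions of 4 genes, chosen by fold change and not by CpG content, are shown. They are RefSeq promoter windows (GRCm38.p6, 250 bases before to 50 after a gene's start), 5′ to 3′, with CpG dinucleotides in capitals, for the 2 highest and 2 lowest fold changes whose gene had a single window. Kalrn lies at chr16:34513978-34514277 on the minus strand, Nrp1 at chr8:128358823-128359122 on the plus strand, Plce1 at chr19:38523947-38524246 on the plus strand and Tuba3a at chr6:125286032-125286331 on the minus strand. The Kalrn, Nrp1 and Plce1 windows lie inside the GENCODE gene spans rather than at their first base: Kalrn spans chromosome 16, 33969073 to 34573532, and Nrp1 spans chromosome 8, 128358604 to 128503363.
Kalrn: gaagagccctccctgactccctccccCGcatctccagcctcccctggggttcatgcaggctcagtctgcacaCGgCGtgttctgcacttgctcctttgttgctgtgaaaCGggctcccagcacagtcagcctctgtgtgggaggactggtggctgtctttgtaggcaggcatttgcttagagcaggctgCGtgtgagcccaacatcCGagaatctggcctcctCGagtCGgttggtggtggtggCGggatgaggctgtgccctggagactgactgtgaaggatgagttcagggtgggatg
Nrp1: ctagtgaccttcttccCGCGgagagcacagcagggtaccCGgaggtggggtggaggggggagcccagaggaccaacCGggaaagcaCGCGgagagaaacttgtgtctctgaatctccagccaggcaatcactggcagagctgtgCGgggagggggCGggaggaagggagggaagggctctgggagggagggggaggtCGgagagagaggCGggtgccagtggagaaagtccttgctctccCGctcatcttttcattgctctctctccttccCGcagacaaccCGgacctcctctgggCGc
Plce1: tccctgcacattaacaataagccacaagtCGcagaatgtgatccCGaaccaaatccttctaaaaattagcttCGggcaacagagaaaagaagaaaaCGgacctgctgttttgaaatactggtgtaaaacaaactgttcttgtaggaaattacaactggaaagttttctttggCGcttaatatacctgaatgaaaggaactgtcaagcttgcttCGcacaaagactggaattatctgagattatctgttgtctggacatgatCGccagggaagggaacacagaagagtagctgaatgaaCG
Tuba3a: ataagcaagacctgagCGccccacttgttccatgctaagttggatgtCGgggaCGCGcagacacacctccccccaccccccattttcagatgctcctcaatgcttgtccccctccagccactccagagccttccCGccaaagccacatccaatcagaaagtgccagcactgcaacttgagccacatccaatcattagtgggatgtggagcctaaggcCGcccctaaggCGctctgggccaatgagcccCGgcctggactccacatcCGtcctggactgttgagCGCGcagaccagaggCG
The windows held 9, 14, 8 and 12 CpG dinucleotides against a median of 22 over the 6162 tested genes with a single window. A window was counted as CpG-rich at a GC content of at least 50% and an observed to expected CpG ratio of at least 0.6. By that rule 75.4% of all windows were CpG-rich, 71.4% of the 741 of genes called higher and 75.9% of the 557 of genes called lower. Among genes changed at least 2-fold the share was 64.6% of 379 higher and 47.7% of 65 lower. The E-box CACGTG, the same on both strands, was in 10.5% of all windows, 9.85% of windows of higher genes and 11.7% of windows of lower genes. The T-box half-site AGGTGTGA or its reverse complement TCACACCT was in 0.844%, 0.405% and 1.26%, and neither motif was in the 4 windows shown. These shares were not tested against each other. Genes in both directions were long, with a median span of 35 kb for higher and 43.8 kb for lower genes against 24.7 kb over all tested genes, and 98.9% of higher genes were protein coding against 94.4% of all.

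By CPM difference rather than fold, and within the same limits, the largest rises were in genes that WT cells already express. Ahnak, a giant scaffold protein of the plasma membrane, had the largest CPM gain (42694 ± 4099 against 29228 ± 1505 CPM, log2 fold change 0.55 ± 0.14). The chemokine gene Ccl5 followed at 932, 851, 1039 and 964 against 305, 337, 378 and 280.2 CPM (log2 fold change 1.54 ± 0.41, adjusted p = 0.006). Its KO libraries had more than 2 times the CPM of every WT library. Itgb1, the integrin beta 1 chain, was at 919, 793, 891 and 899 against 355, 294, 377 and 333 CPM (1.37 ± 0.21). Hnrnph1, an RNA splicing factor (0.36 ± 0.06), Chd3, a chromatin remodeller of the NuRD complex (0.40 ± 0.08), and Cyfip2, a subunit of the WAVE actin regulator (0.41 ± 0.05), made up the 6. Among the 6 largest CPM losses were Myh9, the non-muscle myosin heavy chain (-0.36 ± 0.07), and the ribosomal protein genes Rpsa (-0.39 ± 0.08), Rpl32 (-0.37 ± 0.11), Rplp0 (-0.49 ± 0.08) and Rpl9 (-0.34 ± 0.09). Without WT replicate 1 Rpl32 did not pass the test.

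Ribosomal protein genes, a family chosen after these values were seen, were mostly lower. Of 81 tested genes of cytosolic ribosomal proteins, 48 were called lower and 0 higher, against 9.32% lower over all genes, and 80 had a negative log2 fold change (median -0.35). Together they took 8.11%, 8.25%, 8.12% and 8.09% of the TMM-scaled library size in the KO and 11.5%, 9.75%, 10.5% and 10.4% in the WT memory libraries, without overlap. The Het libraries, at 10.4%, 9.96%, 10.3% and 9.50%, were close to WT. RLE scaling called 47 lower and mean log centring 63, and in DESeq2 49 were lower, with 0 higher in each. Several of these genes have processed pseudogenes that can share reads. Of 53 tested genes of mitochondrial ribosomal proteins only 2 were lower and 0 higher (median -0.07). The list of ribosome biogenesis genes and Myc had 7 of 19 lower and 0 higher, and 14 lower with mean log centring. It included Wdr43 (-0.32 ± 0.07) and Rrp9 (-0.39 ± 0.09), 2 factors of small subunit processing, and Polr1b, the second largest subunit of RNA polymerase I (-0.36 ± 0.08).

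The effector genes that changed were higher in KO. Like the other gene lists, theirs was chosen with earlier results of these data known, so its share is a description. Of 35 listed genes 20 could be tested, and 13 were higher (65% against 12.8% of all genes), 0 lower and 7 not called (median log2 fold change 1.41 against 0.01 over all tested genes). The count filter used KO libraries too, so a member near 0 in WT libraries, such as Anxa1, could hardly be called lower. By role, 4 of 5 transcription factors and 7 of 8 calcium-binding proteins and lectins rose, against 1 of 3 cytotoxicity genes and 0 of 3 surface receptors. Bhlhe40, a helix-loop-helix repressor needed for cytokine production by T cells, was at 58.5, 43.9, 59.5 and 54.7 CPM in KO and 4.5, 3.88, 3.95 and 3.32 CPM in WT libraries (log2 fold change 3.78 ± 0.21, adjusted p = 6.98e-17). Id2, the inhibitor of E proteins that supports effector CD8 cells, was at 465, 422, 455 and 562 against 113, 86.8, 109 and 83.9 CPM (log2 fold change 2.28 ± 0.17, adjusted p = 4.18e-11). Every KO library exceeded every WT library several times over for both genes. The terminal differentiation factors Zeb2 (91.1 ± 12.8 against 8.77 ± 2.69 CPM, log2 fold change 3.37 ± 0.37) and Prdm1, encoding BLIMP1 (26.6 ± 2.32 against 7.37 ± 0.792 CPM, 1.85 ± 0.24), rose as well. These members and others beyond the 3 with the lowest adjusted p in a list were chosen after their values were seen.

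Tbx21, encoding T-bet, was the factor of the list that did not pass the test. It was at 214, 172, 246 and 213 CPM in KO and 147, 180.4, 189 and 138 CPM in WT libraries (log2 fold change 0.37 ± 0.22, adjusted p = 0.284), and the ranges overlapped. The calcium-binding proteins and lectins that rose included Anxa2, a membrane-binding annexin, at 378, 342, 386 and 396 against 77.8, 76.3, 93.6 and 82.8 CPM (log2 fold change 2.18 ± 0.19, adjusted p = 4.54e-10). Anxa1 was near 0 in WT libraries (3.28 ± 1.27 against 0.105 ± 0.155 CPM, log2 fold change 4.97 ± 0.72, and 6.33 without WT replicate 3). S100a4 (1.71 ± 0.37), S100a6 (1.27 ± 0.28) and the galectin genes Lgals1 (0.67 ± 0.16) and Lgals3 (2.56 ± 0.48) rose too. Of the cytotoxicity genes only 3 could be tested. Fasl, the death ligand, rose (7.45 ± 1.73 against 1.78 ± 0.428 CPM, 2.06 ± 0.39), while the perforin gene Prf1 (0.877 ± 0.111 against 1.42 ± 0.449 CPM) and Nkg7 (8.44 ± 1.42 against 6.29 ± 0.826 CPM), of cytotoxic granules, did not pass the test. Granzyme genes and Ifng had too few counts in this table to be tested.

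Genes of the memory state were divided. Of 20 tested members 5 were higher and 4 lower (median 0.47), and 4 higher and 5 lower with mean log centring. Eomes rose from 176, 189, 193 and 166 CPM in WT to 356, 348, 282 and 275 CPM in KO libraries (log2 fold change 0.80 ± 0.16, adjusted p = 0.000271), without overlap. Bcl6, a repressor that opposes BLIMP1, was also higher (36.6 ± 7.2 against 21.7 ± 3.74 CPM, 0.75 ± 0.13), as were Itgb1 and Itga4, which pair as VLA-4. Itga4 was at 59.3, 94.8, 92.5 and 71.9 against 59.2, 34.5, 41.7 and 49.5 CPM (log2 fold change 0.78 ± 0.16, adjusted p = 0.000445), and KO replicate 1 lay just above the highest WT library, replicate 1. The call of Itga4 was lost with only the compared libraries and the replicate number as a block in the fit. Il2rb, which reads interleukin 15, rose by 0.50 ± 0.16, a call lost with mean log centring and without WT replicate 2. Id3, the inhibitor of E proteins kept by long-lived memory cells, fell (20.9 ± 7.21 against 42.3 ± 7.97 CPM, -1.0 ± 0.20), as did Cxcr5, the survival gene Mcl1 (-0.30 ± 0.08) and the quiescence factor gene Bach2 (-0.44 ± 0.14). The call of Bach2 was lost in 6 of the other fits. Cd44, a marker used to sort the cells, gave no call: it was at 27.4, 26, 30.3 and 28.9 against 25, 25.8, 31.4 and 31.4 CPM (log2 fold change -0.01 ± 0.21, adjusted p = 0.986), with overlapping ranges. Cxcr3 did not pass the test either (6.95 ± 1.3 against 8.29 ± 0.868 CPM).

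Genes that hold T cells in the naive and quiescent state were mostly lower where they changed. Of 28 tested members 9 were lower and 1 higher (32.1% and 3.57% against 9.32% and 12.8% of all genes, median -0.15). Mean log centring called 16 lower. Lef1, a high mobility group factor of the Wnt pathway, fell from 851, 742, 645 and 740.5 to 522, 485, 482 and 442 CPM (log2 fold change -0.62 ± 0.07, adjusted p = 3.98e-09). Satb1, an organiser of chromatin in T cells, was at 1569, 1495, 1464 and 1392 in KO and 2021, 1987, 1971 and 1959 CPM in WT libraries (log2 fold change -0.42 ± 0.05, adjusted p = 5.69e-08). The KO libraries of both genes lay below all WT libraries. Tcf7, the partner of Lef1, was at 861, 900.2, 782 and 829.9 against 851, 734, 713 and 763 CPM (log2 fold change 0.14 ± 0.06, adjusted p = 0.125). It did not pass the test, except without WT replicate 1 and with the replicate number as a block in the compared libraries alone, both with the KO level above. Ccr7 fell (56.9 ± 7.09 against 84.8 ± 6.05 CPM, -0.57 ± 0.09), together with the actin crosslinker gene Actn1 (575 ± 76.8 against 1172 ± 169 CPM, -1.03 ± 0.08), the interleukin 6 signal chain gene Il6st (29.2 ± 3.03 against 73.4 ± 11.8 CPM, -1.32 ± 0.11) and the complement regulator gene Cd55 (-1.13 ± 0.16). Tob1, an antiproliferative factor, was the member that rose (0.50 ± 0.12).

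**Figure D3:**
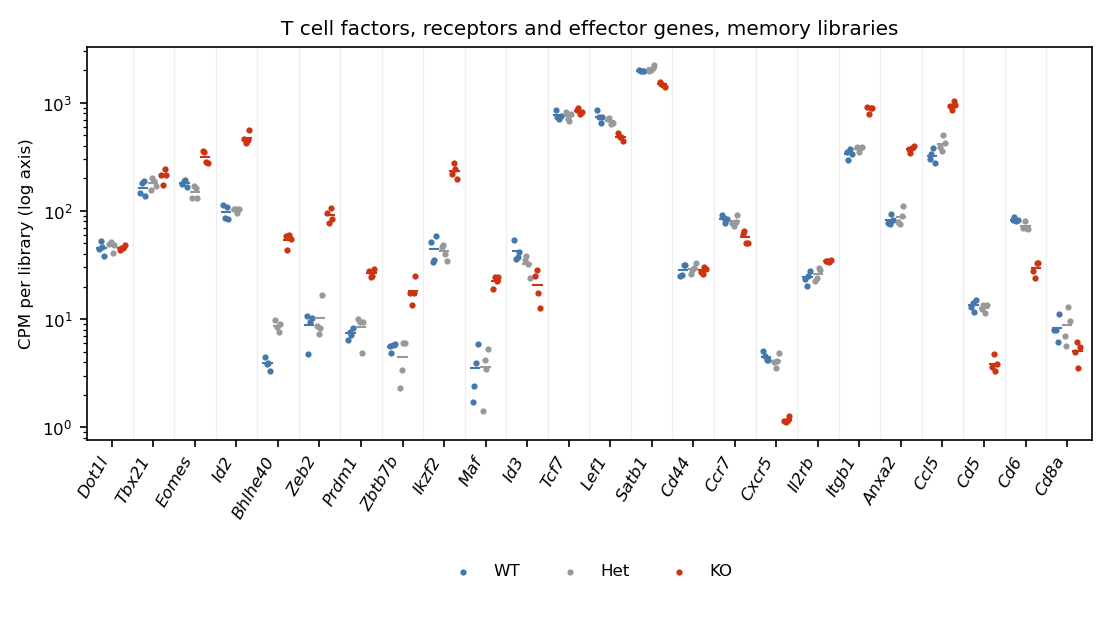
CPM per library (log axis) of 24 T cell genes in WT (blue), Het (grey) and KO (red) memory libraries; points are libraries and lines are means of 4. Dot1l, Tbx21, Tcf7 and Cd44 show no called difference, Id2, Bhlhe40, Zeb2, Ikzf2 and Anxa2 are several times higher in KO, and Cd5 and Cd6 are lower.

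T cell receptor signalling genes that changed were lower in the main fit. Of 36 tested members 12 were lower (33.3% against 9.32% of all genes) and 0 higher (median -0.17). Mean log centring called 16 lower. With the sex covariate 1 was called higher, as in a fit of the compared libraries alone. The 2 deepest falls were in genes that restrain the signal. Cd5, a surface receptor that sets the threshold of the receptor, was at 3.57, 4.78, 3.28 and 3.81 CPM in KO and 13, 14.1, 11.7 and 14.9 CPM in WT libraries (log2 fold change -1.81 ± 0.14, adjusted p = 2.1e-13). Cd6, its relative, was at 27.8, 23.9, 33 and 32.7 against 82, 87.3, 79.9 and 82.5 CPM (log2 fold change -1.50 ± 0.10, adjusted p = 4.64e-15). In both genes the highest KO library was below 50% of the lowest WT library. The ubiquitin ligase gene Cblb (126 ± 7.9 against 209 ± 6.56 CPM, -0.73 ± 0.07), the diacylglycerol kinase gene Dgka (298 ± 20.4 against 460.1 ± 14.3 CPM, -0.63 ± 0.07) and the phosphatase gene Ptpn6 (-0.32 ± 0.09) completed the 5 of 12 restraint genes that fell. On the activating side the adaptor gene Grap2 (-0.98 ± 0.16), the kinase genes Zap70 (-0.21 ± 0.07, lost without WT replicate 2) and Prkcq (-0.25 ± 0.06) and the zeta chain gene Cd247 (-0.43 ± 0.09) fell. Lck was at 987 ± 106 against 1062 ± 61.2 CPM and did not pass the test. The coreceptor genes Cd8a (5.02 ± 1.09 against 8.3 ± 2.11 CPM, -0.75 ± 0.26) and Cd8b1 (-0.77 ± 0.28) were called lower at few counts, a call lost for both without KO replicate 1, KO replicate 3, WT replicate 1 or WT replicate 4. The receptor alpha constant gene Trac was lower with a larger margin (3.53 ± 0.856 against 9.32 ± 1.01 CPM, -1.37 ± 0.20).

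Integrin and adhesion genes rose in 12 of 22 tested members and fell in 3 (54.5% and 13.6% against 12.8% and 9.32% of all genes, median 0.34). With mean log centring 10 were higher and 3 lower. All 4 beta chain genes that changed were higher: Itgb1, Itgb3 (69.8 ± 3.6 against 18 ± 1.43 CPM, 1.96 ± 0.14), Itgb5 (3.29 ± 0.70) and Itgb7 (0.22 ± 0.07, lost in 6 other fits). Among alpha chains the collagen receptor genes Itga1 (2.38 ± 0.56) and Itga2 (1.64 ± 0.36) rose with Itga4 and Itgal (0.32 ± 0.09, lost with mean log centring), while Itga6 (29 ± 2.83 against 63.3 ± 6.45 CPM, -1.13 ± 0.11), Itgav (-0.31 ± 0.09, lost without WT replicate 4) and Itgae, the chain that binds E-cadherin on epithelium (1.44 ± 0.236 against 4.19 ± 0.674 CPM, -1.53 ± 0.24), fell. Jup, encoding the junction protein plakoglobin, was at 16.2, 13.4, 18 and 17.6 CPM in KO and 1.24, 0.923, 0.549 and 1.43 CPM in WT libraries (log2 fold change 3.92 ± 0.22, adjusted p = 1.67e-17). All KO libraries lay many times above the WT libraries. The E-cadherin gene Cdh1 rose as well (4.23 ± 1.78 against 1.67 ± 0.530 CPM, 1.32 ± 0.31).

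Semaphorin and axon guidance genes rose in 10 of 17 tested members and fell in 2 (58.8% and 11.8% against 12.8% and 9.32% of all genes, median 0.71). With mean log centring 9 were higher and 2 lower. On the receptor side, beside Nrp1, the neuropilin 2 gene Nrp2 (1.49 ± 0.37) and the plexin genes Plxna1 (21 ± 3.25 against 7.81 ± 1.12 CPM, 1.43 ± 0.15), Plxnb2 (10.5 ± 1.8 against 0.912 ± 0.592 CPM, 3.52 ± 0.44) and Plxnc1 (0.75 ± 0.12) rose. Among ligands Sema4f (129 ± 12.1 against 74.4 ± 6.29 CPM, 0.79 ± 0.10) and Sema4a (0.55 ± 0.07) rose, and Sema4d, which T cells express at rest (-0.26 ± 0.08), and Rgmb fell. Genes that control the small GTPases of the cytoskeleton went both ways, with 10 of 31 higher and 7 lower (median 0.05), and 8 higher and 10 lower with mean log centring. Beside Kalrn and Cdc42bpa, the exchange factor gene Tiam1 (1.25 ± 0.17) and the kinase gene Pak1 (1.39 ± 0.15) rose. Racgap1, a GTPase-activating protein of the cytokinetic midzone, fell from 52.3, 47.2, 49.1 and 48 to 12.8, 13.7, 18.2 and 13.8 CPM (log2 fold change -1.74 ± 0.11, adjusted p = 3.34e-16), and the exchange factor genes Trio (-0.40 ± 0.08) and Dock2 (-0.25 ± 0.05) fell by less.

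Phosphoinositide genes were 8 higher and 6 lower of 25 tested (median -0.04), and 6 higher and 10 lower with mean log centring. Phospholipase C genes split by member: Plce1 and Plcl2 (-0.58 ± 0.09) fell, while Plcb4 rose from 1.86, 1.94, 1.87 and 1.88 to 11.4, 14.7, 13.5 and 13 CPM (log2 fold change 2.79 ± 0.19, adjusted p = 2.46e-15) and Plcg2, the form used by B cells and natural killer cells, rose from 2.17, 3.69, 4.06 and 7.17 to 10.3, 10.5, 11.1 and 12.8 CPM (1.38 ± 0.26). The KO libraries of both genes lay above the WT libraries. Among WT libraries Plcg2 was highest in replicate 4, as were the B cell markers given below, whose part in its level was not tested. Among phosphatases Inpp4b and Inpp5f (-0.93 ± 0.24) fell and Inppl1, which encodes SHIP2, rose (0.83 ± 0.17). The kinase subunit gene Pik3cd fell (-0.25 ± 0.07), Pik3cg rose (0.39 ± 0.08) and Akt1 rose (0.33 ± 0.07).

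Cytokine receptor and STAT genes had 3 of 32 higher and 6 lower (9.38% and 18.8%, median -0.08), and 1 higher and 9 lower with mean log centring. The JAK kinase gene Jak2 rose (91.6 ± 4.72 against 62.3 ± 4.08 CPM, 0.56 ± 0.09) and Stat5b, a signal carrier of interleukins 2, 7 and 15, fell (86.1 ± 6.75 against 141 ± 12.7 CPM, -0.71 ± 0.08), with the receptor genes Il21r (-0.76 ± 0.17) and Il4ra (-0.96 ± 0.33). The call of Il4ra was lost without KO replicate 2 or 3 and without WT replicate 3 or 4. In the chemokine system 5 of 13 tested members rose and 2 fell (median -0.10, and 0.02 without KO replicate 3), and 4 were higher and 4 lower with mean log centring. Cxcr4, the bone marrow homing receptor, was at 196, 187, 160.4 and 157 CPM in KO and 80.8, 106, 86.3 and 74.3 CPM in WT libraries (log2 fold change 1.01 ± 0.13, adjusted p = 5.56e-07). Ccr2, a receptor of inflamed tissue, rose (19.7 ± 1.69 against 4.99 ± 2.1 CPM, 2.0 ± 0.41) with Ccl5. Ccr7 and Cxcr5, receptors of lymphoid organs, fell.

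Among inhibitory receptor and exhaustion genes 3 of 14 tested members were higher and 2 lower (median -0.35). Cd160 rose (11.9 ± 1.38 against 3.61 ± 1.04 CPM, 1.74 ± 0.20), with the transcription factor genes Maf (22.7 ± 2.53 against 3.49 ± 1.87 CPM, 2.71 ± 0.33) and Ikzf2. Tox, the factor that drives the exhausted state, fell (66.3 ± 5.18 against 89.7 ± 11.7 CPM, -0.44 ± 0.09), and so did Ctla4 (1.65 ± 0.713 against 3.67 ± 1.64 CPM, -1.16 ± 0.34), the latter not without KO replicate 1 or WT replicate 4. Of the factors of lymphoid identity 9 of 24 rose and 5 fell (median 0.38), and 8 fell with mean log centring. Ikzf2, which encodes Helios, was at 219, 279, 243 and 196 CPM in KO and 51.5, 33.5, 35.1 and 58.6 CPM in WT libraries (log2 fold change 2.39 ± 0.23, adjusted p = 6.78e-09). Zbtb7b, encoding ThPOK, the factor of the CD4 lineage, rose (18.3 ± 4.75 against 5.55 ± 0.460 CPM, 1.71 ± 0.40) while Runx3, the factor of the CD8 lineage, rose as well (63 ± 8.11 against 38.9 ± 4.44 CPM, 0.70 ± 0.14). Rora (18.9 ± 0.576 against 5.48 ± 1.81 CPM, 1.76 ± 0.19) and Myb (310.4 ± 39.9 against 153 ± 30.7 CPM, 1.02 ± 0.19) were also higher. Pou2f2, encoding the octamer factor OCT2, fell from 45.2, 48.5, 40.4 and 48.9 to 15.8, 19, 20.2 and 15.2 CPM (log2 fold change -1.38 ± 0.12, adjusted p = 8.73e-13).

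Of 16 tested genes of the DOT1L complex and elongation factors 1 was higher (6.25% against 12.8% of all genes) and 4 were lower (25% against 9.32%), and the number lower was 1 without KO replicate 4, WT replicate 1 or WT replicate 4. Ell2, an elongation factor of RNA polymerase II, rose (5.53 ± 0.371 against 1.38 ± 0.406 CPM, 2.01 ± 0.33), the scaffold genes Aff1 (-0.52 ± 0.12) and Aff3 (-0.23 ± 0.07) were lower, the latter not without KO replicate 1 or 4 or WT replicate 1 or 4, and the genes of the cofactors AF9 and ENL, Mllt3 and Mllt1, did not pass the test. In PRC2, which methylates lysine 27 of histone H3, 2 of 12 members were higher and 2 lower, and 1 was higher with mean log centring. The accessory gene Phf19 rose from 3.57, 6.37, 8.23 and 7.26 to 26, 26.6, 22.9 and 22.7 CPM (log2 fold change 1.97 ± 0.21, adjusted p = 4.08e-09), and Jarid2, another accessory subunit, fell (156 ± 7.35 against 220.1 ± 9.07 CPM, -0.49 ± 0.07). Ezh2, the methyltransferase, was at 43.6, 41, 54.7 and 49.8 against 54.1, 55.7, 69.6 and 67.6 CPM (log2 fold change -0.38 ± 0.12, adjusted p = 0.0142). Its ranges overlapped, and the call was lost without KO replicate 1 or 2 and without WT replicate 3 or 4. Phf1 (0.27 ± 0.08) lost its call with mean log centring and without KO or WT replicate 4.

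Hox cluster genes and their cofactors, targets of DOT1L in leukaemia, were higher in 6 of 10 tested members (60% against 12.8% of all genes, median 1.83). All were at low counts, and 3 were called when KO or WT replicate 1 was left out. Members near 0 in WT libraries could hardly be called lower. Meis1 was at 2.38, 3.84, 3.76 and 3.24 CPM in KO and 0.388, 0.185, 0 and 0.986 CPM in WT libraries (2.99 ± 0.65, 3.90 without WT replicate 4). Pbx3 (5.98 ± 0.682 against 2.08 ± 0.923 CPM, 1.48 ± 0.29) and Pbx4 (1.66 ± 0.582 against 0.465 ± 0.110 CPM, 1.86 ± 0.41) rose. Hoxa2 (2.18 ± 1.26 against 0.412 ± 0.451 CPM, 2.43 ± 0.81) and Hoxa3 (0.634 ± 0.264 against 0.118 ± 0.112 CPM, 2.41 ± 0.80) had calls that several single libraries decided, and their log2 fold changes were 3.33 and 3.19 without WT replicate 4.

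DNA replication genes rose in 17 of 24 tested members (70.8% against 12.8% of all genes) and fell in 0 (median 0.62), and 10 were called with mean log centring. All 6 subunits of the MCM helicase, which unwinds DNA at origins, were called higher. Mcm2 was at 133, 125, 111 and 130.4 CPM in KO and 71.9, 68.7, 76.7 and 73.3 CPM in WT libraries (log2 fold change 0.78 ± 0.07, adjusted p = 5.98e-12). Mcm4 was at 258, 233, 209 and 216 against 151, 142, 152 and 159 CPM (log2 fold change 0.60 ± 0.08, adjusted p = 4.9e-08), and Mcm5 at 43.3, 40.1, 32.6 and 32.6 against 19.1, 18.9, 22.9 and 19 CPM (log2 fold change 0.90 ± 0.12, adjusted p = 1.17e-07). In these genes every KO library lay above every WT library. The initiation factor genes Gins1 (2.3 ± 0.257 against 0.820 ± 0.290 CPM, 1.50 ± 0.33) and Mcm10 (1.32 ± 0.779 against 0.398 ± 0.342 CPM, 1.91 ± 0.50, and 2.56 without WT replicate 3) rose most among the members. Pole, the leading strand polymerase (57 ± 4.47 against 27.7 ± 3.57 CPM, 1.05 ± 0.14), and Lig1, which seals Okazaki fragments (14.5 ± 1.52 against 7.05 ± 2.15 CPM, 1.05 ± 0.19), rose too. Mitosis genes had a median of 0.48 that single libraries moved, to 0.09 without KO replicate 3, 0.28 without WT replicate 1, 0.30 without WT replicate 2 and 0.81 without WT replicate 3. Of their 22 tested members 2 were higher (Ect2, 0.66 ± 0.23, and Tpx2, 1.32 ± 0.47) and 2 lower (Racgap1 and Kif23, -0.95 ± 0.20), and between 0 and 4 were higher as libraries were left out. The calls of Ect2 and Tpx2 were lost with mean log centring and in 5 and 4 of the fits without a library, and that of Kif23 with only the compared libraries. The proliferation marker Mki67 was at 2.26 ± 1.26 against 1.68 ± 1.21 CPM and did not pass the test.

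Interferon-stimulated genes were higher in 9 of 26 tested members (34.6% against 12.8% of all genes) and lower in 0 (against 9.32%, median 0.45). With mean log centring 7 were higher. They included the GTPase gene Gbp3 (19.8 ± 0.918 against 12.4 ± 0.521 CPM, 0.67 ± 0.12), Irf9, a subunit of the interferon response factor ISGF3 (63.3 ± 3.95 against 47.8 ± 2.47 CPM, 0.41 ± 0.08), the antiviral gene Rsad2 (6.03 ± 1.92 against 2.48 ± 0.782 CPM, 1.31 ± 0.29), the RNA sensor gene Ifih1 (0.77 ± 0.18) and Irf7 (1.01 ± 0.26).

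Metabolic lists are given against 12.8% higher and 9.32% lower over all genes. Of 22 tested cholesterol genes 2 were higher and 2 lower (9.09% each), and 5 lower with mean log centring: Soat2, which esterifies cholesterol, rose from 3.73, 8.31, 9.22 and 5.29 to 45.6, 41.7, 43.2 and 51.3 CPM (log2 fold change 2.79 ± 0.17, adjusted p = 2.28e-16), Abca1, which exports it, rose (0.76 ± 0.24, lost in 5 other fits), and Srebf2, the master factor of its synthesis (109 ± 6.55 against 176 ± 12 CPM, -0.70 ± 0.08), and Mvd (-0.72 ± 0.18) fell. Glycolysis had 3 of 19 higher and 3 lower (15.8% each), with Aldoc (1.85 ± 0.38) up and Pgk1 (147 ± 4.98 against 201 ± 16.6 CPM, -0.45 ± 0.07) and Eno3 (-0.48 ± 0.13) down, and 1 higher and 8 lower with mean log centring. Glutathione and detoxification genes had 1 of 18 higher (Gstm1) and 1 lower (Gpx1, -0.52 ± 0.12), and 3 lower with mean log centring. Mitochondrial respiration had 1 of 18 lower (Mdh2, -0.21 ± 0.06) and 0 higher, and 6 lower with mean log centring. Heat shock genes had 1 of 11 lower (Hspe1, -0.28 ± 0.09, lost in 4 other fits) and 0 higher.

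Survival and death genes had 4 of 16 tested members higher and 3 lower (median -0.14), and 5 lower with mean log centring. Bcl2l11, encoding the death protein BIM, rose (17 ± 1.34 against 8.53 ± 2.08 CPM, 1.0 ± 0.15) with Fasl and the death-associated kinase genes Dapk1 (14.2 ± 3.23 against 0.935 ± 0.331 CPM, 3.86 ± 0.26) and Dapk2, while the pro-survival gene Bcl2l1 (-0.65 ± 0.15) and the death gene Bbc3 (-0.95 ± 0.20) fell with Mcl1. Activation and immediate early genes had 2 of 21 higher and 4 lower (median -0.14), and 1 higher and 5 lower with mean log centring. Without WT replicate 1 the list had 4 higher and 3 lower and a median of 0.20, and with the replicate number as a block the median was 0.01. Egr3 fell (9.37 ± 2.32 against 25 ± 4.96 CPM, -1.41 ± 0.24) with Egr2 (12.6 ± 3.76 against 27.3 ± 9.54 CPM, -1.08 ± 0.25), 2 zinc finger factors that receptor signals induce and that curb T cell activation, and Fosl2 rose (0.85 ± 0.14). The call of Egr2 was lost in a fit of the compared libraries alone.

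TGF-beta, activin and BMP genes had 4 of 22 higher and 6 lower (median -0.09). The rises were in receptors and a ligand: Acvr2a, an activin receptor, at 94.4, 84.5, 111 and 112 CPM in KO and 17.6, 19.9, 20 and 14.1 CPM in WT libraries (log2 fold change 2.49 ± 0.18, adjusted p = 6.14e-13), Acvr1 (2.07 ± 0.41), Tgfbr3 (1.30 ± 0.18) and Tgfb3 (2.37 ± 0.36). The falls were in the signal carriers Smad2 (-0.29 ± 0.06) and Smad4 (-0.26 ± 0.06), in the pathway's brakes Smad7 (-0.30 ± 0.08) and Smurf1 (-0.86 ± 0.08), and in the receptors Tgfbr1 (-0.35 ± 0.08) and Acvr1b (-0.46 ± 0.12). Notch and Wnt genes had 7 of 20 higher and 2 lower (median 0.11), and 4 lower with mean log centring. Notch2 (0.43 ± 0.07), Dtx4 (21.7 ± 4.48 against 6.12 ± 1.27 CPM, 1.82 ± 0.20) and the Wnt co-receptor gene Lrp5 (15.3 ± 0.315 against 6.14 ± 0.184 CPM, 1.32 ± 0.13) rose, and Notch1, the receptor of T cell commitment, fell (263 ± 23.2 against 379 ± 12.2 CPM, -0.53 ± 0.10). Kruppel-like factor genes had 3 of 11 higher, with Klf4 (1.9 ± 0.170 against 0.287 ± 0.314 CPM, 2.57 ± 0.55, 3.48 without WT replicate 1) and Klf10 (1.12 ± 0.28) among them, and 2 lower, Klf7 (-0.62 ± 0.07) and Klf16 (-0.81 ± 0.19).

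Flippase, channel and pump genes had 10 of 21 higher (47.6% against 12.8% of all genes) and 4 lower (19% against 9.32%, median 0.17). This list, which holds Atp8a2, was chosen with earlier results of these data known, so the shares only describe it. Leaving out a library gave 7 to 8 higher, and mean log centring gave 6 higher and 5 lower. Next to Atp8a2, the plasma membrane calcium pump gene Atp2b4 (74.6 ± 4.15 against 33.2 ± 3.26 CPM, 1.17 ± 0.15) and the potassium channel gene Kcna3 (0.33 ± 0.07) rose, and the flippase gene Atp10d (-0.71 ± 0.10), the sodium pump gene Atp1b1 (-0.69 ± 0.09) and the store-operated calcium channel gene Orai1 (-0.48 ± 0.10) fell. Of 9 tested lamin and nuclear envelope genes 2 were higher and 0 lower. Lmna, encoding lamins A and C, was at 17.6, 21.6, 17.1 and 27.6 against 2.64, 4.34, 3.4 and 2.33 CPM (log2 fold change 2.71 ± 0.24, adjusted p = 7.11e-12), and Lmnb2 rose by 0.33 ± 0.10, a call lost in 4 of the other fits.

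**Figure D4:**
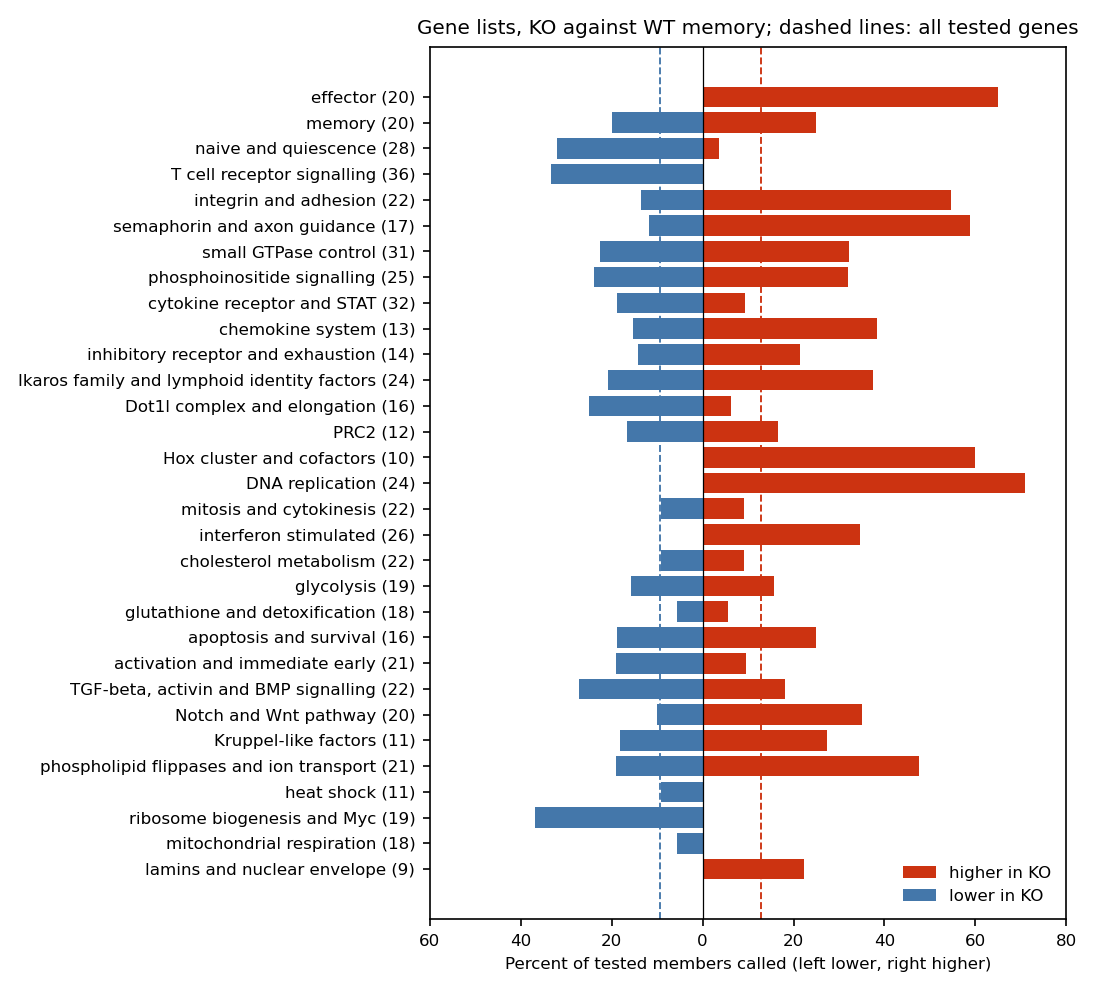
Percent of tested members of each of the 31 gene lists called higher (red, to the right) and lower (blue, to the left) in KO against WT memory libraries, with the number tested in brackets; dashed lines mark the 12.8% higher and 9.32% lower over all tested genes. The DNA replication, effector and Hox lists reach farthest to the right and the ribosome biogenesis, T cell receptor and naive lists farthest to the left. The lists were chosen with earlier results of these data known.

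X-linked genes were called higher more often than the rest, 71 of 349 (20.3%) against 12.6% of autosomal genes, and 35 (10%) were called lower against 9.32% of all genes. With the sex of the library as a covariate 71 of the 349 were higher again, and with mean log centring 16% against 9.70% of autosomal genes. The 3 with the lowest adjusted p were Maged1, a melanoma antigen family gene (14.5 ± 2.49 against 3.39 ± 0.663 CPM, 2.08 ± 0.18), Bcorl1, a partner of the BCL6 corepressor (76.4 ± 6.86 against 37.1 ± 4.57 CPM, 1.04 ± 0.10), and the plexin gene Plxna3 (1.91 ± 0.23). Sh2d1a, encoding the adaptor SAP, was also higher (35.3 ± 3.44 against 17.7 ± 1.13 CPM, 0.99 ± 0.15). The shares were not tested against each other, and these genes were chosen after their values were seen.

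Few markers of other cells were called. Of 14 B cell markers 10 could be tested and 0 were called, and their summed level was 15.3, 48.0, 76.9 and 60.1 CPM in KO and 20.7, 17.9, 67.7 and 172 CPM in WT libraries. WT replicate 4 was highest. The falling genes Pou2f2 and Cxcr5 are also expressed by B cells, and the part of B cells in their values was not tested. Of 10 natural killer markers Eomes alone could be tested, and Ncr1 had 0 counts in the 8 libraries. Of 12 myeloid markers, summed at 1.30 to 3.47 CPM in KO and 1.48 to 4.48 CPM in WT libraries, 1 was tested and 0 called. Of 8 dendritic cell markers, at 6.75 to 19.3 CPM in KO and 12.6 to 23.3 CPM in WT libraries, 1 was tested and 0 called.

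Markers of CD4 and regulatory T cells were summed at 19.8 to 28.6 CPM in KO and 8.77 to 13.9 CPM in WT libraries. Among these markers Zbtb7b, whose level is given above, carried the higher sum in KO libraries. Of 7 such markers 4 were tested, Zbtb7b was higher and Ctla4 lower, Foxp3 was at 0.167 ± 0.0894 against 0.309 ± 0.171 CPM, and Cd4 had 0 counts in the 8 libraries. Their part in the results was not tested. Gamma delta and innate-like T cell markers (0 of 5 tested called) were at 1.12 to 2.05 CPM in KO and 0.544 to 2.87 CPM in WT libraries, and red cell and platelet markers (0 of 5) at 4.17 to 51.2 CPM and 6.47 to 26.8 CPM. Of 4 tested markers of immature thymocytes Dntt was higher at a trace level (8 counts over the KO and 0 over the WT libraries), a call lost in 4 other fits. Summed over the 7 listed markers the level ran the other way, at 5.17 to 6.28 CPM in KO and 6.83 to 9.41 CPM in WT libraries. The median log2 fold change of the tested members was -0.31. The CD8 T cell markers had 4 of 9 lower and 0 higher, with 1 lower in each fit without KO replicate 1 or 3 or WT replicate 1 or 4, and their sum was 1243 to 1532 CPM in KO and 1462 to 1614 CPM in WT libraries.

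Het memory libraries stood close to WT. A single gene of 10296 (0.00971%) was called between Het and WT libraries, with 527 at an unadjusted p under 0.05 and 2 called in DESeq2. It was Atp8a2, at 4.71, 4.16, 5.79 and 6.06 CPM in Het and 2.64, 2.86, 2.74 and 3.23 CPM in WT libraries (log2 fold change 0.86 ± 0.16, adjusted p = 0.0486). All Het libraries lay above all WT libraries and far below the KO libraries. The call of Atp8a2 was lost where estimates were not robust, without Het replicate 1 or 3 and without any 1 of the WT libraries. Bhlhe40 stood next, at 9.78, 8.49, 7.52 and 9.09 CPM in Het libraries (log2 fold change 1.16 ± 0.23, adjusted p = 0.0518), again between WT and KO without overlap. Against the Het libraries, 2082 genes (20.2%) were called in KO, 1198 higher (11.6%) and 884 lower (8.59%). These share the KO libraries with the first comparison and the Het comparison shares its WT libraries, so they are no independent repeat. The log2 fold changes against WT and against Het were 2.28 ± 0.17 and 2.22 ± 0.17 for Id2, -2.31 ± 0.08 and -2.37 ± 0.08 for Inpp4b, -1.81 ± 0.14 and -1.72 ± 0.15 for Cd5 and 0.80 ± 0.16 and 1.08 ± 0.16 for Eomes.

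Naive libraries, which share no library with the memory comparison, gave calls that overlapped in part with those of memory libraries. In naive cells 1879 genes were called (18.2%), 1147 higher (11.1%) and 732 lower (7.11%). Of the memory rises 815 were called higher in naive cells too, 61.6% of the memory and 71.1% of the naive list, and 493 falls were shared, 51.4% of the memory and 67.4% of the naive list. Another 12 genes were called in opposite directions. Across all tested genes the log2 fold changes in the 2 subsets correlated at r = 0.73, as a description over genes that are not independent. The difference between the subsets was tested as an interaction, which called 184 genes (1.79%), 69 with the larger value in memory and 115 with the larger value in naive cells, while 982 had an unadjusted p under 0.05.

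Id2 was called in memory and not in naive cells. In memory cells it was at 476 ± 60 against 98.1 ± 14.9 CPM (KO against WT), in naive cells at 152 ± 13.5 against 139 ± 35.7 CPM, and the log2 fold change was 2.28 ± 0.17 against 0.14 ± 0.17 (difference 2.14 ± 0.24, adjusted p = 3.53e-06). Id3 gave the reverse picture, with -1.0 ± 0.20 in memory and 0.60 ± 0.20 in naive cells (difference -1.60 ± 0.29, adjusted p = 0.00144). The receptor kinase gene Igf1r rose by 3.14 ± 0.18 in memory and by 1.35 ± 0.16 in naive cells (difference 1.79 ± 0.24). Its level was lower in WT memory than in WT naive libraries, 11.3 ± 3.92 against 60.8 ± 11.5 CPM, and was 87.3, 116, 85.1 and 119 CPM in the KO memory libraries. Dapk1 (2.21 ± 0.35), Gstm1 (2.54 ± 0.63), Nav1 (1.74 ± 0.47) and P3h4, an endoplasmic reticulum protein of collagen processing (1.72 ± 0.37), were the others of the 6 largest positive differences among genes that reached 1 in mean log2 CPM, and Gstm1 and Nav1 lost the call in 11 of 26 other fits each. Without WT memory replicate 1 the difference of Gstm1 was 4.85.

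Tbx21 and Cd44, both higher in WT memory than in WT naive libraries, were called in naive libraries and not in memory libraries. Tbx21 had a log2 fold change of 2.22 ± 0.26 in naive and 0.37 ± 0.22 in memory cells (difference -1.85 ± 0.35, adjusted p = 0.00237). Cd44 had 1.61 ± 0.30 in naive and -0.01 ± 0.21 in memory cells (difference -1.62 ± 0.37, adjusted p = 0.0125), a call lost in a fit of the compared libraries alone. In naive libraries Cd44 was at 8.91 ± 6.04 against 2.78 ± 1.12 CPM (KO against WT), below the memory level. Both subsets were sorted by CD44, so the gate bears on these Cd44 values, and its part was not tested. Pak6, a CDC42-activated kinase, had 3.60 ± 0.50 in naive and 0.22 ± 0.27 in memory cells. Kcnj8, Dapk2, S100a6 and Soat2 rose in both subsets and by more in naive cells, where WT libraries had 0.116 ± 0.136, 0.443 ± 0.493, 2.16 ± 2.5 and 0.697 ± 0.319 CPM against 3.67 ± 1.1, 18.7 ± 7.86, 40.4 ± 12.8 and 6.64 ± 2.57 CPM in memory cells. WT naive replicate 3 set the size of several differences: without it they were -5.54 for Pak6, -4.26 for Dapk2 and -3.85 for S100a6, against -3.38 ± 0.59, -3.11 ± 0.68 and -2.53 ± 0.51 with it.

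Several falls were deeper in memory cells. Inpp4b had -2.31 ± 0.08 in memory and -1.30 ± 0.07 in naive cells (difference -1.01 ± 0.10, adjusted p = 2.81e-08). Cd6 (-0.75 ± 0.15), Cd5 (-0.82 ± 0.21), Actn1 (-0.73 ± 0.11) and St6gal1 (-1.54 ± 0.16) had negative differences too, with Cd5 losing the call in 7 of 26 other fits. Cxcr5 was at 1.17 ± 0.0670 against 4.49 ± 0.405 CPM in memory and 1.07 ± 0.513 against 0.815 ± 0.232 CPM in naive cells (difference -2.30 ± 0.46), and Itgae at -1.53 ± 0.24 and -0.23 ± 0.13 (difference -1.30 ± 0.28). Of the replication genes named here, 5 had a larger rise in memory cells by this test, with differences of 0.51 ± 0.10 for Mcm2, 0.51 ± 0.11 for Mcm4, 0.71 ± 0.18 for Mcm5, 0.84 ± 0.20 for Pole and 1.22 ± 0.30 for Lig1. The calls of Pole and Lig1 were lost in 3 other fits each and that of Mcm5 in 2. The differences of Gins1 (1.43 ± 0.56, adjusted p = 0.288) and Mcm10 (0.37 ± 1.37, adjusted p = 0.999) were not called. Tgfbr3 had 1.30 ± 0.18 in memory and -0.31 ± 0.16 in naive cells (difference 1.62 ± 0.25, adjusted p = 3.82e-05).

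**Figure D5:**
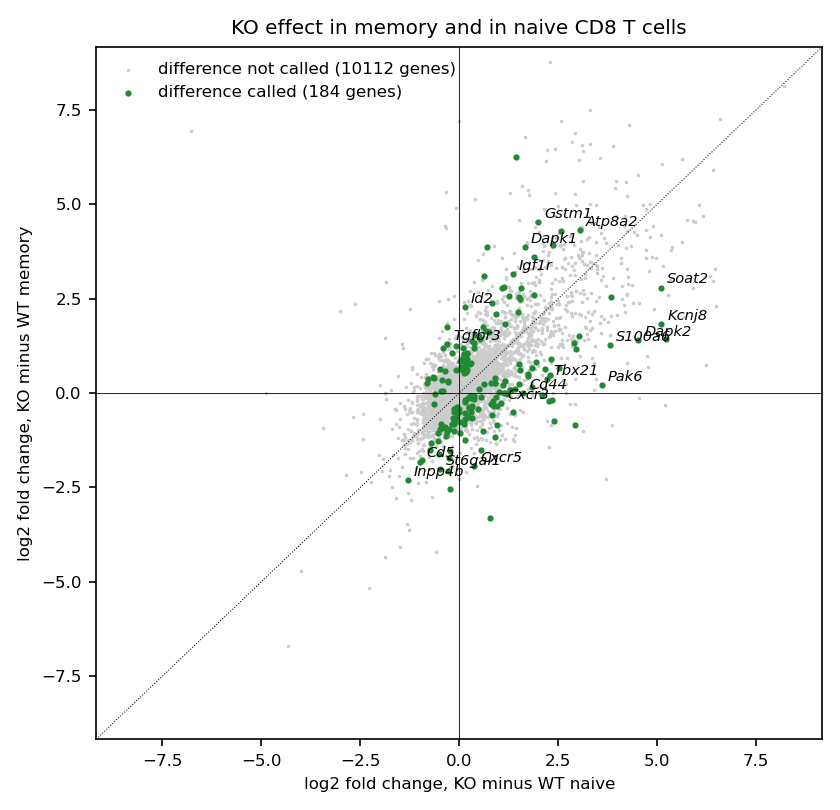
Log2 fold change of KO minus WT in naive (x axis) and memory (y axis) libraries for the 10296 tested genes; green points are the 184 genes whose difference between the subsets was called and the dotted line marks equal values. Id2 and Dapk1 lie above the line, Pak6, Tbx21 and Cd44 below it on the right, and Cxcr5 and Inpp4b below it at the bottom.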

How the data were processed

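RNA of sorted mouse T cells was sequenced (Trizol extraction, TruSeq Stranded mRNA libraries, single reads, per the labels' protocols). The deposited values are raw read counts per Ensembl gene for 35 libraries in 9 groups. Per the submitters' processing notes, reads were handled with TopHat2 2.1.0 and HTSeq 0.9.1 on GRCm38 (mm10). Which annotation was counted, and on which strand, is not given in the sources used here. Overlapping genes and pseudogene copies can therefore share reads.

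The counts were fitted with edgeR 4.0.16 (R 4.3.3): filterByExpr over the 9 groups left 10296 of 52636 genes, TMM factors scaled the libraries, and a robust quasi-likelihood fit of group means over all 35 libraries gave contrasts with 26 residual degrees of freedom. A gene was called at a Benjamini-Hochberg adjusted p under 0.05. Log2 fold changes are given with their standard errors and CPM as mean ± SD (n = 4). Replicates of a group differed by more than counting noise (chi-square per gene 3.98 to 17.8), and low counts limit the precision of genes near 0. The fit was also run on simulated counts in which few genes changed, equally in both directions. These data differ from that setting, so the run does not vouch for the calls given here. Gene positions are from the GENCODE annotation on GRCm38, and promoter windows from RefSeq on GRCm38.p6.

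Genes were named by rule: a set of key T cell genes, the 12 highest and 12 lowest log2 fold changes whose mean log2 CPM reached 1 and whose KO and WT libraries did not overlap, the 6 largest CPM differences in each direction, the 3 called members of lowest adjusted p (or fewer) per list in 31 gene lists, and the 6 highest and 6 lowest memory against naive differences. Predicted gene models and receptor segments were left out, and a few genes are not reported here. Other named genes were chosen after their values were seen. The comparison, its gene lists and the named genes were chosen with earlier results of these data known. Alternatives were DESeq2 1.42.0, RLE scaling, mean log centring, no filter or a stricter filter, non-robust estimates, the sex of the library as a covariate, only the libraries compared, the replicate number as a block, and leaving out each library.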

Additional observations from a re-analysis of the deposited data

Results flagged for a closer look

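Among the 639 groups of 4 memory libraries checked (213 named genes in KO, WT and Het), 29 had 1 library whose gap to its nearest neighbour took more of the range than Dixon's 95% critical value for 4 samples allows. Chance gives this in about 1 in 20 groups. The number in brackets is that gap as a share of the range. KO replicate 1 stood apart as low in Itga6 (0.843). KO replicate 2 stood apart as high in St6gal1 (0.885) and low in Cd160 (0.847). WT replicate 1 stood apart as high in Kalrn (0.864), Gstm1 (0.949) and Igfbp4 (0.886) and low in Lpcat2 (0.933). WT replicate 3 stood apart as high in Slc35g1 (0.853), Jak2 (0.904), Mcm5 (0.956) and Bcl2l1 (0.90) and low in Rassf3 (0.848). WT replicate 4 stood apart as high in Cxcr3 (0.91), Cdc42bpa (0.904) and Itgav (0.83). Het replicate 1 stood apart as low in Mcm5 (0.905) and Notch1 (0.843). Het replicate 2 stood apart as high in Cd6 (0.845) and Itgb5 (1) and low in Clic5 (0.961) and Pak1 (0.926). Het replicate 3 stood apart as high in Anxa1 (1), Lig1 (0.863) and Smad2 (0.855) and low in Prdm1 (0.891) and Ctla4 (0.884). Het replicate 4 stood apart as high in Aff1 (0.856), Zeb2 (0.849) and Dntt (1). The low-count genes with a value of 1 had 0 counts in the other libraries of the group.

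For 41 of the named genes the log2 fold change of KO against WT differed between memory and naive libraries at an adjusted p under 0.05 (edgeR interaction, adjusted over all tested genes, p from 2.81e-08 to 0.0496). The value is the memory minus the naive log2 fold change, with both in brackets. The value was positive for Gstm1 2.54 (4.53 and 2.0), Dapk1 2.21 (3.86 and 1.65), Id2 2.14 (2.28 and 0.14), Igf1r 1.79 (3.14 and 1.35), Nav1 1.74 (4.30 and 2.56), P3h4 1.72 (3.60 and 1.88) and Tgfbr3 1.62 (1.30 and -0.31). It was also positive for Jup 1.56 (3.92 and 2.36), Atp8a2 1.26 (4.31 and 3.04), Plcb4 1.22 (2.79 and 1.56), Lig1 1.22 (1.05 and -0.17), Pak1 1.06 (1.39 and 0.33), Acvr2a 0.97 (2.49 and 1.52), Lrp5 0.94 (1.32 and 0.38), Pole 0.84 (1.05 and 0.21), Mcm5 0.71 (0.90 and 0.19), Mcm4 0.51 (0.60 and 0.09) and Mcm2 0.51 (0.78 and 0.27). It was negative, with a fold change above 0 in both subsets, for Pak6 -3.38 (0.22 and 3.60), Kcnj8 -3.27 (1.84 and 5.10), Dapk2 -3.11 (1.41 and 4.52), S100a6 -2.53 (1.27 and 3.80), Soat2 -2.31 (2.79 and 5.10), Tbx21 -1.85 (0.37 and 2.22), Atp2b4 -1.78 (1.17 and 2.95) and Inppl1 -1.11 (0.83 and 1.94). It was negative as well for Cxcr5 -2.30 (-1.94 and 0.36), Ctla4 -2.06 (-1.16 and 0.91), Cd44 -1.62 (-0.01 and 1.61), Id3 -1.60 (-1.0 and 0.60), St6gal1 -1.54 (-2.02 and -0.48), Cxcr3 -1.33 (-0.26 and 1.06) and Itgae -1.30 (-1.53 and -0.23), and for Inpp4b -1.01 (-2.31 and -1.30), Atp1b1 -0.83 (-0.69 and 0.14), Cd5 -0.82 (-1.81 and -0.99), Cd6 -0.75 (-1.50 and -0.75), Actn1 -0.73 (-1.03 and -0.30), Trio -0.65 (-0.40 and 0.25), Aff3 -0.38 (-0.23 and 0.15) and Jarid2 -0.36 (-0.49 and -0.13). Of these calls 16 were lost in at least 1 of 26 other fits, from 15 for Acvr2a to 1 for S100a6, Itgae and Ctla4, and none changed sign in those fits.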

How the results depend on the processing

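The count of genes called between KO and WT memory libraries was 2218 to 2831 in the other fits that kept all 8 libraries, and 1959 to 2049 when a library was left out (1114 to 1210 higher, 812 to 868 lower). Of the 2283 genes, 1527 (66.9%) were called in all 8 of those fits. Mean log centring moved the split most: it called 1812 genes lower between KO and WT and 1914 lower between KO and Het. For KO against Het, leaving out a library gave 1808 to 1939 calls (1006 to 1140 higher, 753 to 813 lower). The interaction gave 148 to 176 calls without a library (50 to 65 higher, 94 to 126 lower).

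Same-numbered KO and WT memory libraries correlated at -0.03 to 0.27 in their deviations from the group means (3 of 4 numbers above 0.1), and 6 of 8 libraries correlated best with their own number. The numbers were to count as pairs where every correlation exceeded 0.1, which was not met. For naive and memory libraries, which bear on the interaction, same-numbered libraries correlated at 0.21 to 0.31 in WT and 0.0995 to 0.32 in KO, and all 8 libraries of each genotype correlated best with their own number. This met the limit in WT and fell just short of it in KO, a hint from the data that the labels do not explain. With the replicate block 2413 genes were called between KO and WT, and 2799 in the compared libraries alone, an alternative chosen after seeing the data. The interaction called 221 genes with the replicate block, against 184 without, and none of the named genes lost its interaction call. In the compared libraries alone with the block it called 276 genes, 179 of them lower, but Acvr2a, Cd44, Dapk2, Gstm1 and Itgae lost the call there. The block gives equally numbered libraries of all genotypes a common term, so it does not model naive and memory pairs within a genotype. Het against WT memory gave 3 calls with the replicate block, 2 higher and 1 lower. It gave 2, all higher, with DESeq2, with RLE scaling, with mean log centring and with the sex covariate, 3, all higher, with no filter on low counts, and 0 with estimates that were not robust. Without a library it gave 0 to 1 in all, 0 to 1 higher and 0 to 1 lower.

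Over the 213 named genes, 3730 of 3833 values kept their direction and their side of the threshold, 91 lost the call and 3 gained it, in 25 and 2 genes. The 9 reversals were of Dot1l and Cd44, neither of which was called: Dot1l was -0.11 with mean log centring and -0.064 to 0.087 without a library, and Cd44 was 0.049 with the sex covariate and -0.067 to 0.043 without a library. The cause of these changes was not tested.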

Other observations

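Red cell and B cell transcripts followed the replicate number in all 3 genotypes. Summed red cell and platelet markers were 51.2 and 37.2 CPM in KO, 21.4 and 26.8 CPM in WT and 42.5 and 56.0 CPM in Het memory replicates 1 and 2. In replicates 3 and 4 they were 4.17 and 12.3, 6.47 and 14.2, and 3.94 and 7.94 CPM. B cell markers ran the other way in each genotype, at 10.1 to 48.0 CPM in the replicates numbered 1 and 2 and at 60.1 to 172 CPM in those numbered 3 and 4. Every genotype holds both pairs of numbers, and the labels do not say what a number marks.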
